A study of Mus musculus with 4 samples.

Results

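Rab small GTPases and Vps (vacuolar protein sorting) proteins were followed here through the H3K36me3 peaks on their genes in the embryonic mouse forebrain. The members were all genes whose name in the authors' peak annotation of either library was Rab or Vps followed by a number, without Vps72, whose product belongs to a chromatin remodelling complex and not to the trafficking machinery. This gave 65 genes, 37 Rab and 28 Vps, of 12987 gene names in the 2 annotations. RefSeq holds 93 protein-coding genes with such symbols, 59 Rab and 34 Vps, so 28 genes of the families carried no peak under their own symbol. No expression value or difference between genotypes entered this choice, but a gene had to have at least 1 peak in at least 1 library.

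The study compared 2 groups of C57BL/6 embryos at day 13 (E13). The first carried a brain-specific deletion of H2A.z1, a histone variant that takes the place of canonical H2A near promoters and enhancers (H2A.z1cKO, here cKO). The second was wild type (WT). Chromatin of forebrain neural progenitor cells was immunoprecipitated for H3K36me3, and each genotype had 1 ChIP and 1 input library, 4 libraries in all. The Cre line that drives the deletion and the number of embryos behind each library are not given in the sources used here, and 1 input library carries 2 numbers in its name. A single ChIP library stands for each genotype, so nothing could be tested between them, no p-value is given, and each difference is one between 2 libraries. The 95% intervals are Clopper-Pearson (exact binomial) and hold counting error alone. They take peaks as independent, which peaks of the same gene need not be, so they can be too narrow.

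Both ChIP libraries were sequenced to a like depth, with 32927164 tags in cKO and 31984670 in WT, but the cKO list held 95750 peaks and the WT list 36820. Most marked genes of the genome had more peak length in cKO, so the main counts of the trafficking genes are set beside those over all genes. Neural progenitor markers were marked for 11 of 12 genes in cKO and 9 of 12 in WT, and neuronal markers for 3 of 8 in cKO and 2 of 8 in WT. Of 24 markers of microglia, endothelial, erythroid and mesenchymal cells, 21 had no peak in cKO and all 24 had none in WT. The part of cell composition in the values below was not tested.

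Rab proteins are molecular switches that sit on the membranes of one compartment each, where in the GTP-bound form they recruit tethers, motors and lipid kinases. Vps proteins were found in yeast by mutants that missort vacuolar enzymes, and most of them are subunits of the complexes that Rabs recruit or that sort cargo beside them. H3K36me3 is written by SETD2 as RNA polymerase II elongates, and lies over the bodies of transcribed genes, usually toward the 3' end. It is thus read here as coverage, the share of a gene body (RefSeq span, assembly GRCm38.p6) that lay inside peaks.

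The starts of these genes are shown first, and no peak lay on those examined. RefSeq promoter windows of 300 bases (assembly GRCm38.p6) existed for 51 members (64 windows, since a gene can have several starts), and 0 of the 64 overlapped a peak in cKO or in WT. Over all promoters 1.26% of windows held a peak in cKO and 0.338% in WT. At shares this low, the lack of a peak in 64 windows says nothing particular about trafficking genes. Lysosomal and autophagy genes often carry GTCACGTGAC, a motif known to be bound by TFEB and its relatives. It reads the same on both strands, contains the E-box CACGTG, and is the commonest palindrome made from that E-box with 2 more bases on each side over all promoters. It was found in 7 of 64 member windows (10.9%), against 107 of 32851 windows (0.326%) over all promoters, and CACGTG alone was found in 12.5% and 7.15%. The 6 genes were Rab5a, Rab21, Rab24, Vps16, Vps26a (in a pair of overlapping windows) and Vps33a. A match describes these letters and is not evidence of binding. The windows of an early endosomal Rab, an autophagy Rab and a pair of subunits shared by the HOPS and CORVET tethers are printed 5' to 3', with GTCACGTGAC in capitals.
Rab5a, chr17:53478984-53479283, plus strand: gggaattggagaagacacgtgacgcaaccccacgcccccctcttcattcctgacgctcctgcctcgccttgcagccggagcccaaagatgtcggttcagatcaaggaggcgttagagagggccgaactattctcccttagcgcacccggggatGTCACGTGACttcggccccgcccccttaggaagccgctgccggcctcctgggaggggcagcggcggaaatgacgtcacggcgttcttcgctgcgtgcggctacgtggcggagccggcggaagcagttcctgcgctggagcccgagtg
Rab24, chr13:55321931-55322230, minus strand: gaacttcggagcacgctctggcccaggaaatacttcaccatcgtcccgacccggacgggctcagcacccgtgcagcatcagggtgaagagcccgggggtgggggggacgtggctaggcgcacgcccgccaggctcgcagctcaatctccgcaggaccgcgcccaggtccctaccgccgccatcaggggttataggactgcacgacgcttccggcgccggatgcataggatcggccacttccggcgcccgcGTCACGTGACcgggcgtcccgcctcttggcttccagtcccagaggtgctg
Vps16, chr2:130424070-130424369, plus strand: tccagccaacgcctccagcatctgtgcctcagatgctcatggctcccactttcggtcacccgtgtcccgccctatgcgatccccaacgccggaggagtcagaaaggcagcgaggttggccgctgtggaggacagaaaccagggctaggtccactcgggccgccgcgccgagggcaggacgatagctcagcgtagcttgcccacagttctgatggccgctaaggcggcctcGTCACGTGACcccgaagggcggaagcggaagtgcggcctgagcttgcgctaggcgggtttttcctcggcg
Vps33a, chr5:123572966-123573265, minus strand: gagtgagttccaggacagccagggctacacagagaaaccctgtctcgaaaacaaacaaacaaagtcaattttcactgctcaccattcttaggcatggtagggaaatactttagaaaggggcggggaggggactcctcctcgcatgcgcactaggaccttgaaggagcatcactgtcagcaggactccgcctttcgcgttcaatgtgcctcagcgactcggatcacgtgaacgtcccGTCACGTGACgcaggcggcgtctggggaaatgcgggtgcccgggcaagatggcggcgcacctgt

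By the authors' gene names, 62 of the 65 members had a non-intergenic peak in cKO and 44 in WT. The cKO library held 539 such peaks with a summed length of 343 kb, and the WT library 153 peaks with 48.5 kb. Summed length was thus 7.06 times as large in cKO, beside a ratio of 5.18 over all genes, and peak number 3.52 times, beside 2.58. Calling a gene higher or lower when summed length differed by at least 2-fold, or when only 1 library had a peak, made 59 members higher in cKO (90.8%, against 90.8% of all 12573 genes) and 4 lower (6.15%, against 3.15%). The share called higher was the same as the background, so it says nothing particular about trafficking genes. Among the 41 members with a peak in both libraries, 38 were higher (beside 89.9% of such genes) and 1 lower (beside 0.546%), with a median fold of 6.23 beside 5.48. Peaks in cKO only were found on 21 members, beside 33.1% of all genes, and in WT only on 3 (Rab6b, Rab8b and Vps13b), beside 2.80%. The 21 were Rab2a, Rab2b, Rab4a, Rab5b, Rab5c, Rab6a, Rab9, Rab10, Rab11a, Rab13, Rab28, Rab31, Rab34, Rab35, Rab42, Vps13c, Vps26a, Vps28, Vps37b, Vps41 and Vps45, with summed lengths of 262 bp (Rab10) to 5648 bp (Vps13c) in cKO. On the bodies of 7 of these the WT list did hold peaks, under another gene's name.

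The direction depended on how the lists of unequal size were matched. Matching on covered length makes the 2 lists alike in total length by construction. The ratio over all genes after that cut is not given here. With only the strongest cKO peaks kept, as many as made up the covered length of the WT list, 11 peaks on 7 members were left and the ratio of summed length became 0.367. At that size 5 members were more covered in cKO, 40 less and 20 equal or at 0, where 21.5% of the 9674 genes with a body peak in either full list were more covered and 50.0% less, and the median difference in coverage was -0.509 points. By the 10-point call this made 1 member of at least 5 kb higher and 6 lower. Over all 16853 genes of that length 810 (4.81%) were higher and 373 (2.21%) lower. Only 8873 of those genes had any peak in the full lists, while members were chosen for having one. These shares thus understate the background for the members. Rab1b kept the largest difference in favour of cKO (46.7% covered, against 22.6% in WT), while Rab8a, Vps4a, Vps52, Rab11b, Vps11 and Vps18 were the 6 lower ones. Reduced to the number of WT peaks instead, it still gave a ratio of 4.11. How far the longer cKO list reflects enrichment in that library was not tested.

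Coverage by gene body showed which trafficking genes were most marked. In the 59 members of at least 5 kb the median coverage was 16.6% in cKO (quartiles 4.94 and 34.5%) and 1.35% in WT (quartiles 0 and 4.76%). Of these, 36 were higher in cKO by at least 10 percentage points (61.0%, against 32.6% of all 16853 genes and 61.9% of the 8873 genes with any peak), and 0 were lower. Set beside genes with any peak, the share of members was at the background. The median difference was 13.3 points, against 16.4 points for all marked genes. Coverage of more than 50% was reached by 9 members in cKO (15.3%, beside 17.5% of marked genes) and 0 in WT (beside 0.372%), and 2 members in cKO and 16 in WT stood at 0. Counting members of every length, 62 had more coverage in cKO, 0 less and 3 (Rab3d, Rab25 and Rab42) none in either library. Of the 9674 marked genes of every length, 98.3% had more and 1.65% less, so this too is at the background.

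The order of the members was much the same in both libraries, with a Spearman rho of 0.877 between their coverage over 57 marked members, beside 0.821 over 8873 genes. This is a description over genes that share libraries and gene length. Longer members were less covered: the rho between coverage in cKO and body length was -0.625, beside -0.502 over all marked genes. Members of 5 to 20 kb had a median of 34.2% in cKO and 4.42% in WT (19 genes), those of 20 to 50 kb 21.2% and 3.16% (26 genes), and those over 50 kb 3.48% and 0.241% (14 genes). All marked genes of the same lengths had medians of 33.5, 23.4 and 5.32% in cKO and 4.56, 2.46 and 0.427% in WT. Vps genes stood above Rab genes, with medians of 28.6% in cKO and 4.42% in WT (27 genes), against 12.4% and 1.01% for Rab genes (32 genes). The median length of the same genes was 27.6 kb for Vps and 23.3 kb for Rab. The difference between the families was not tested, and they were not compared within classes of length.

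**Figure D1:**
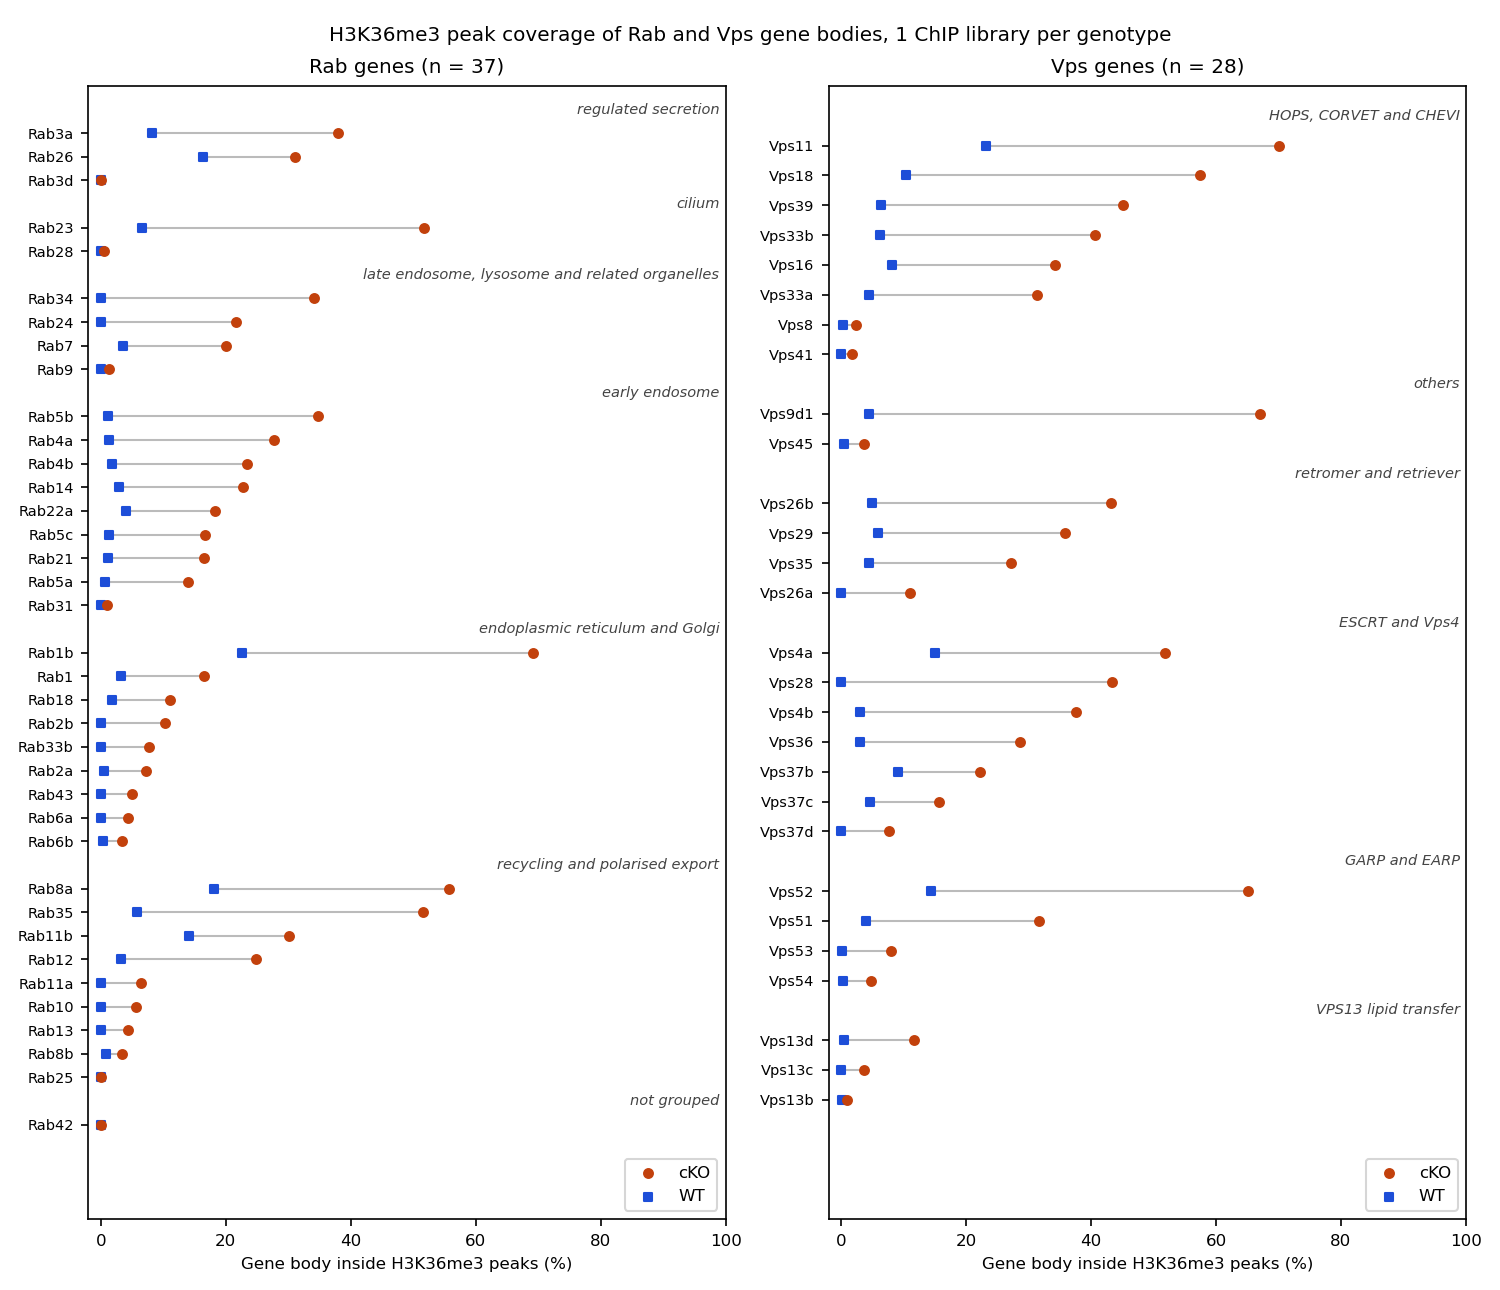
Share of each gene body inside H3K36me3 peaks (x axis, percent) for 37 Rab and 28 Vps genes, grouped by role, with a circle for the cKO library and a square for the WT library. In 62 genes the cKO value lies to the right of the WT value, and Rab3d, Rab25 and Rab42 are at 0 in both.

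The counts per role from here on are to be read beside the 61.9% of marked genes higher in cKO by at least 10 points. Each role holds few genes, and differences between roles were not tested. Among the Rabs of the endoplasmic reticulum and Golgi, 3 of 9 were higher in cKO by that call. Rab1b, which with its paralogue Rab1 (Rab1a in RefSeq) controls transport from the endoplasmic reticulum to the Golgi, was the most covered Rab. Its 7.79 kb body (chr19:5099207-5106996) was 69.1% covered in cKO and 22.6% in WT. Rab1 (chr11:20201412-20226856) was 16.6% covered in cKO and 3.27% in WT. Rab2a and Rab2b, which act between these compartments, stood at 7.25 and 10.2% in cKO and at 0.509 and 0% in WT. Rab6a and Rab6b, Rabs of the Golgi, were the least covered of the group in cKO, with 4.32 and 3.38%, and had 0 and 0.287% in WT. Rab18, a Rab of the endoplasmic reticulum and lipid droplets, was 11.0% covered in cKO and 1.84% in WT. Rab33b and Rab43 had 7.76 and 5.05% in cKO and no peak on the body in WT. Coverage within the group thus ran over a wide range, with 1 member far above the rest in both libraries.

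Of the early endosomal Rabs, 8 of 9 were higher by at least 10 points, all except Rab31. The 3 paralogues of Rab5, the Rab that drives fusion of early endosomes, were covered to 13.9% (Rab5a), 34.8% (Rab5b) and 16.7% (Rab5c) in cKO. In WT the same genes had 0.703, 1.19 and 1.35%, a single peak each. Rab5b thus stood apart from the other paralogues in cKO and not in WT. Rab4a and Rab4b, which return cargo rapidly from early endosomes to the surface, had 27.8 and 23.4% in cKO and 1.25 and 1.83% in WT. Rab14, Rab21 and Rab22a lay between 16.5 and 22.7% in cKO and between 1.18 and 4.03% in WT. Rab31, in the longest body of the Rab members (121027 bp), had 1.04% in cKO and no peak in WT.

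The Rabs of recycling and polarised export were split, with 4 of 9 higher by at least 10 points. Rab8a (chr8:72161200-72181366), which guides vesicles to the plasma membrane and the cilium, was 55.8% covered in cKO and 18.2% in WT. Its paralogue Rab8b had 3.32% in cKO and 0.841% in WT. Rab35 (chr5:115631904-115647158), a Rab of the plasma membrane and recycling endosome, had 51.6% in cKO and 5.83% in WT. Rab11b, of the recycling endosome, had 30.2% in cKO and 14.2% in WT, while its paralogue Rab11a had 6.45% and 0%. Rab12 had 24.9% in cKO and 3.30% in WT. Rab10 and Rab13 were at 5.63 and 4.43% in cKO and at 0 in WT. Rab25, known from epithelia, had no peak on its body in either library.

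Of the 5 Rabs of late endosomes, secretion and cilia with bodies of at least 5 kb, 2 were higher by at least 10 points, Rab7 and Rab23. Rab7, which recruits the HOPS tether to late endosomes, had 9 body peaks in cKO and 4 in WT and was 16.5 points more covered in cKO. Rab34, which acts in lysosome positioning and in cilium formation, had 34.2% in cKO and 0% in WT over a body under 5 kb. Rab9, which returns receptors to the Golgi, was the single X-linked member and had 1 peak in cKO (1.32%) and none in WT, while the X-linked Rab9b, Rab33a and Rab39b had none in either. Rab3a, the Rab of synaptic vesicles, had 37.9% in cKO and 8.27% in WT over a body of 3906 bp, and Rab26 had 31.1% and 16.3%. Rab23 (chr1:33719896-33742564), which restrains Hedgehog signalling, had 20 peaks (51.7%) in cKO and 5 peaks (6.55%) in WT. Rab28, also linked to cilia, had 0.576% in cKO and 0% in WT.

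Of the 28 family genes outside the members, 22 had no body peak in either library. They were 21 Rab genes (Rab3b, Rab3c, Rab7b, Rab9b, Rab15, Rab17, Rab19, Rab20, Rab27a, Rab27b, Rab29, Rab30, Rab32, Rab33a, Rab36, Rab37, Rab38, Rab39, Rab39b, Rab40b and Rab44) and Vps25, a subunit of ESCRT-II. These genes are outside because no peak carried their symbol, so a lack of body peaks was largely set by that choice. Of the members, 62 of 65 had a body peak, and of the 28 genes outside, 6 had one. Over all 21887 RefSeq protein-coding genes, 9674 had a body peak in either library. Expression was not measured in these data.

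The tethers that Rab5 and Rab7 recruit were the Vps complex group with the highest median coverage, with 6 of 8 higher by at least 10 points and medians of 37.4% in cKO and 6.27% in WT. The group holds CORVET, which acts on early endosomes, HOPS, which acts on late endosomes and lysosomes, and CHEVI. CORVET and HOPS share Vps11, Vps16, Vps18 and Vps33a. Vps11 (chr9:44347749-44361673) was the most covered member of all with 70.0% in cKO and 23.2% in WT. Vps18 had 57.4% in cKO and 10.4% in WT. Vps16 had 34.2% in cKO and 8.21% in WT, and Vps33a 31.3% and 4.45%. The 4 shared subunits were thus all among the more covered members. The subunits special to 1 complex differed: Vps39, of HOPS, had 45.1% in cKO and 6.31% in WT, while Vps41, also of HOPS, had 1.79% and 0%, and Vps8, of CORVET, had 2.33% and 0.301%. Vps41 and Vps8 lie in bodies of 149520 and 221564 bp, several times the length of the other subunits. Vps33b, which pairs with Vipas39 in the CHEVI complex, had 40.6% in cKO and 6.23% in WT, and Vipas39 itself had 62.8% and 7.24%.

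All 4 retromer members were higher by at least 10 points. Retromer retrieves cargo from endosomes, and its subunits Vps35 and Vps29 had 27.2 and 35.9% in cKO and 4.49 and 5.87% in WT. The alternative subunits Vps26b and Vps26a differed, with 43.2% in cKO and 4.92% in WT for Vps26b, and 11.0% and 0% for Vps26a. Vps26b shares 11.1% of its body with Thyn1, so part of its peaks cannot be given to 1 gene. Some relatives carried older symbols in the annotation, which placed them outside the members. Vps35l, a retriever subunit listed as 9030624J02Rik, had 45 body peaks (18.8%) in cKO and 8 (1.89%) in WT, and Vps26c, listed as Dscr3, had 6 (24.3%) in cKO and 5 (7.25%) in WT. Vps50, of the EARP tether and listed as Ccdc132, had 7 (1.49%) in cKO and 0 in WT. Vps37a, of ESCRT-I, was outside for another reason: its peaks, 9 (9.30%) in cKO and 2 (1.44%) in WT, carried the name of Cnot7, a separate gene.

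The ESCRT members carry ubiquitylated receptors into the endosome lumen, and 5 of 6 of at least 5 kb were higher by at least 10 points. Vps4a, an ATPase that takes ESCRT-III filaments apart, had 51.9% in cKO and 15.0% in WT, and its paralogue Vps4b had 37.6% and 3.00%. Vps36, of ESCRT-II, had 28.6% in cKO and 3.05% in WT. The interchangeable ESCRT-I subunits Vps37b, Vps37c and Vps37d had 22.3, 15.7 and 7.63% in cKO and 9.04, 4.60 and 0% in WT, which is the same order in both libraries. Vps28, the ESCRT-I subunit with a body under 5 kb, had 43.4% in cKO and 0% in WT.

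In the Golgi tether GARP, 2 of 4 subunits were higher by at least 10 points. Vps52 had 65.1% in cKO and 14.4% in WT, and Vps51 had 31.6% and 3.99%. Vps53 and Vps54, in bodies of 133413 and 82102 bp, had 8.00 and 4.83% in cKO and 0.169 and 0.336% in WT. Vps53 had the largest ratio of summed length of all members with a peak in both libraries, 47.2, from 22 peaks (10676 bp) in cKO and 1 peak (226 bp) in WT. Each ratio that starts from a single WT peak of this size rests on that peak.

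Outside these complexes, Vps9d1 had the largest difference of all members, 62.7 points. Named for a domain found in exchange factors of Rab5, it was 67.1% covered in cKO and 4.42% in WT (chr8:123242356-123254222). The VPS13 proteins, which transfer lipids between membranes, were sparsely covered. Vps13d (chr4:144871045-145195037) had the most peaks and the most peak length of all members in cKO, with 71 peaks (37471 bp) in cKO and 5 peaks (1674 bp) in WT. Over its long body this came to 11.6% in cKO and 0.517% in WT. Vps13c had 3.59% in cKO and 0% in WT, and Vps13b, the longest body at 560112 bp, 0.874% and 0.196%. Vps45, which acts in endosomal membrane fusion, had 3.71% in cKO and 0.486% in WT.

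Of the wider pathway, 52 of the 86 genes reaching 5 kb stood at least 10 points higher in cKO (60.5%) and 0 lower, where the share was 32.6% over all genes and 61.9% over marked genes. The 86 include genes with no peak, such as Rin1 and Uvrag. Partners of Vps complexes counted 26 of 36, with Hgs, the ubiquitin-binding ESCRT-0 subunit, at 77.0% in cKO and 33.5% in WT. Proteins of Rab prenylation and recycling counted 6 of 7, led by Rabggtb, a subunit of the enzyme that attaches the lipid anchor, with 71.8% in cKO and 27.8% in WT. Exchange factors and GTPase activators counted 13 of 27, with Ccz1, part of the Rab7 exchange factor, at 63.9% in cKO and 7.70% in WT. Effectors counted 7 of 16.

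Peaks named for a member did not always lie on it. In cKO 427 of the 539 named peaks overlapped the RefSeq body of the named gene (79.2%, interval 75.5 to 82.6%), and in WT 112 of 153 (73.2%, interval 65.5 to 80.0%). Over all genes the shares were 82.5% in cKO and 81.5% in WT. Of the 112 cKO peaks outside, 83 were named for Rab24, Rab33b or Vps39, as were 27 of the 41 in WT. Rab24, an autophagy Rab with a 2758 bp body, had 37 named peaks in cKO and 19 in WT. Of these, 35 in cKO and 19 in WT lay in Nsd1, its neighbour and itself a methyltransferase for H3K36, and 1 in cKO and 0 in WT on Rab24. The Nsd1 body was 48.4% covered in cKO and 9.06% in WT. Rab33b, another autophagy Rab, had 26 named peaks in cKO and 4 in WT, of which 24 and 4 lay in Naa15 and 1 and 0 on Rab33b. Vps39 had 48 named peaks in cKO and 12 in WT, of which 21 and 4 lay in Tmem87a and 26 and 8 on Vps39 itself.

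**Figure D2:**
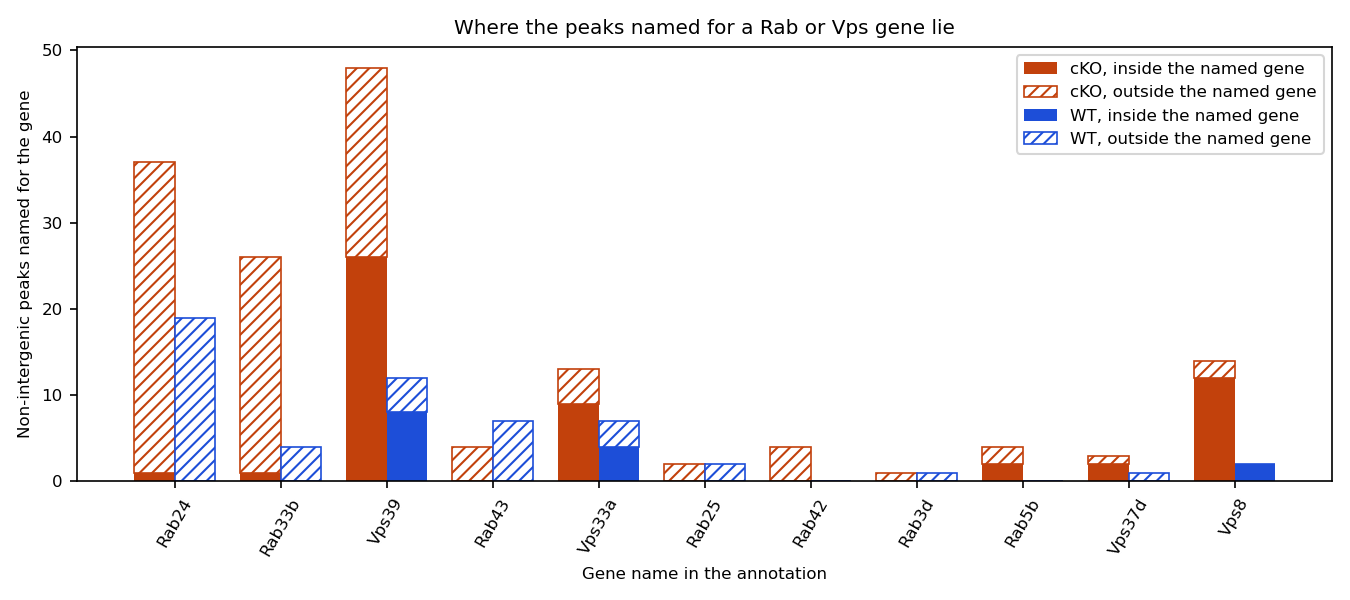
Non-intergenic peaks named for a gene (y axis, count) in the cKO library (left bar) and the WT library (right bar), split into those that overlap the body of that gene (filled) and those that do not (hatched), for the members with at least 2 peaks outside over both libraries. For Rab24 1 of 37 cKO peaks and 0 of 19 WT peaks lay on the gene, and for Vps39 26 of 48 and 8 of 12.

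**Figure D3:**
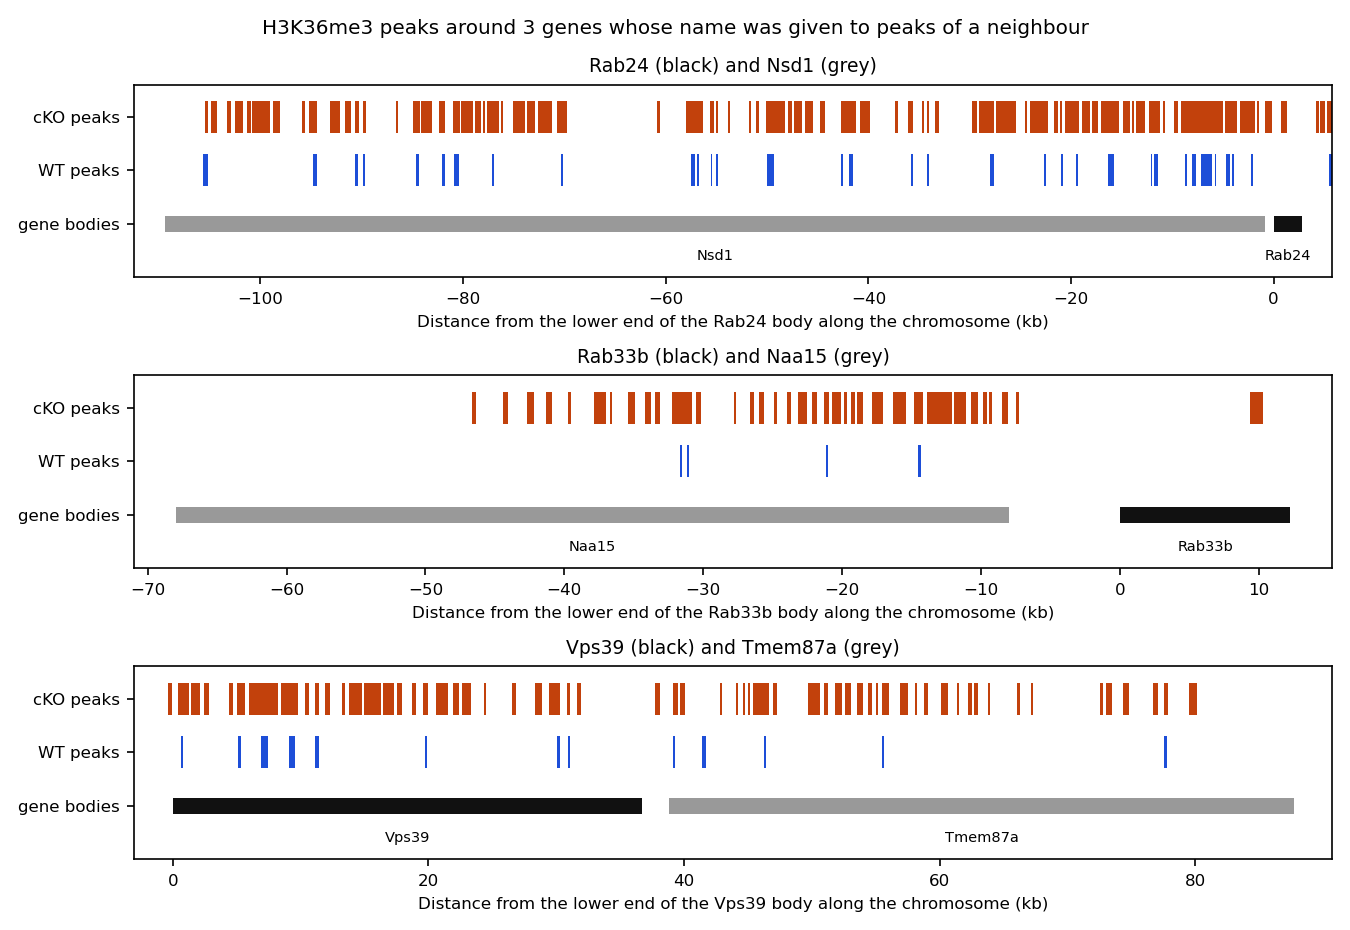
Peaks of the cKO library (upper row) and the WT library (middle row) over Rab24 and Nsd1, Rab33b and Naa15, and Vps39 and Tmem87a, with gene bodies in the lower row (member black, neighbour grey). The x axis is the distance in kb from the lower end of the member's body along the chromosome, and the Rab24 and Rab33b bodies hold 1 cKO peak each and 0 WT peaks.

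The reverse also occurred. Member bodies held 550 peaks in cKO and 159 in WT, of which 123 and 47 were named for another gene. The Rab22a body held 11 cKO peaks named for mmu-mir-6340, Rab4a 10 under a Riken name and Vps26a 8 under Supv3l1. The 4 members lower in cKO by name were all of this kind or the previous one. Rab3d had 1 peak in each library, 282 bp in cKO and 833 bp in WT, and both lay in Tmem205. Rab6b, Rab8b and Vps13b had 1 named peak each in WT (211, 152 and 211 bp) and none in cKO. By body they held 8, 7 and 8 peaks in cKO and 1, 3 and 4 in WT, the cKO ones being named for Srprb, Aph1c and Cox6c. Counted by body, 45 members had peaks in both libraries, 17 in cKO only, 0 in WT only and 3 in neither. Rab25 and Rab42 had named peaks (2 in each library for Rab25, 4 in cKO and 0 in WT for Rab42) and none on their bodies.

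The cKO peaks were wider as well as more numerous. Named member peaks had a median width of 400 bp in cKO (quartiles 278 and 733 bp) and 249 bp in WT (quartiles 183 and 374 bp), where all genic peaks had 439 and 271 bp. The fragment length in peak calling also differed, at 185 bp in cKO and 152 bp in WT. The WT lower quartile of width lies below the cKO fragment length. The part of this setting in the widths was not tested. Peaks over 2 kb numbered 18 in cKO (3.34%, beside 6.09% of all genic peaks) and 0 in WT. The longest in cKO measured 6215 bp on Vps16 (chr2:130437939-130444153) and the longest in WT 1167 bp, on Rab11b and under the name of Rab24. For 6 gene names a smaller number of cKO peaks covered more length. Vps11 had 3 named peaks of 6247 bp in cKO and 6 of 2720 bp in WT. Rab8a had 3 of 5581 bp in cKO and 7 of 2263 bp in WT. Vps4a had 3 of 8182 bp in cKO and 4 of 716 bp in WT, and Vps16 and Vps37c showed the same. In these genes the count of named peaks points the other way from their length. The sixth name, Rab43, had 4 peaks of 5284 bp in cKO and 7 of 2597 bp in WT, but none of them lay on Rab43, whose body held 1 cKO peak and 0 WT peaks under another name.

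**Figure D4:**
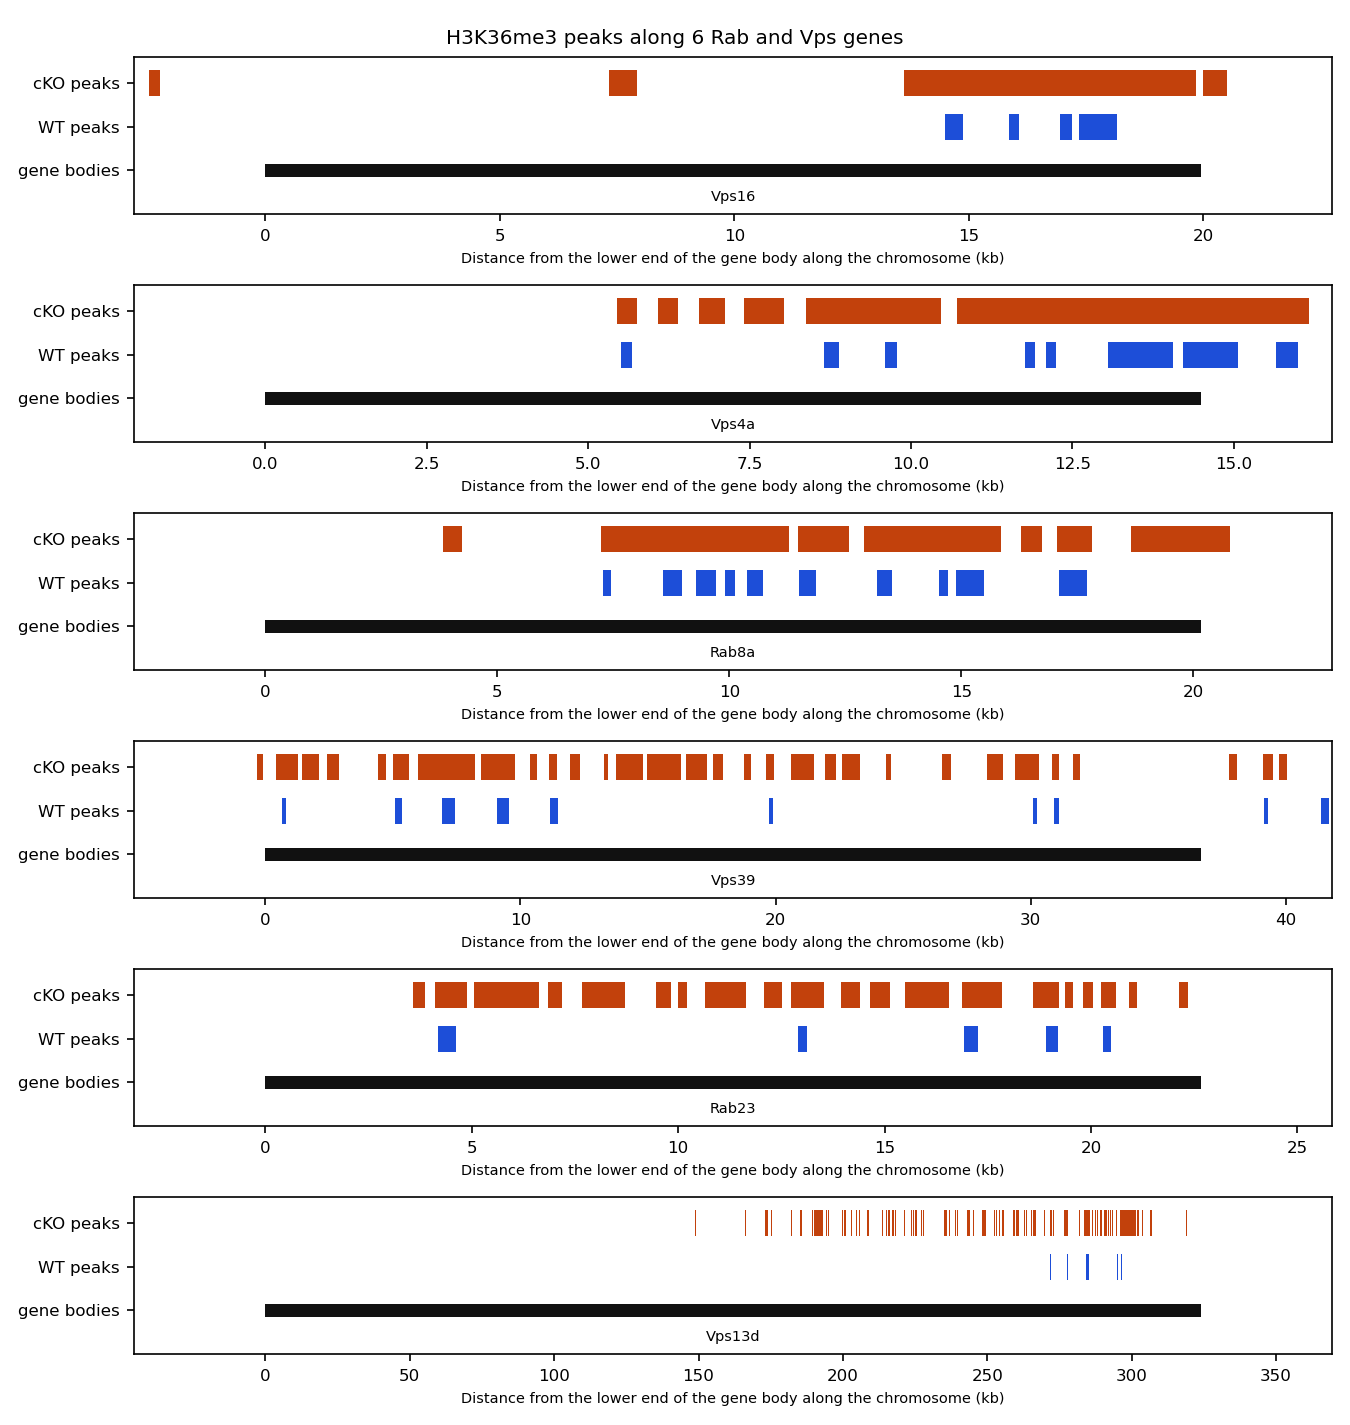
Peaks of the cKO library (upper row) and the WT library (middle row) along Vps16, Vps4a, Rab8a, Vps39, Rab23 and Vps13d, with the gene body in black and distance from its lower end along the chromosome in kb on the x axis. Single cKO peaks on Vps16, Vps4a and Rab8a span 4, 5 and 5 WT peaks, for Vps4a partly beyond the body, and on Vps39, Rab23 and Vps13d most cKO peaks have no WT peak beneath them.

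WT peaks on members lay almost wholly where cKO had a peak. A cKO peak overlapped 146 of the 153 (95.4%, interval 90.8 to 98.1%), beside 96.5% of all genic WT peaks. In the other direction a WT peak overlapped 109 of 539 (20.2%, interval 16.9 to 23.9%), beside 25.6%. A single cKO peak held at least 2 WT peaks in 23 cases, and up to 5 on Vps4a, Vps11 and Rab8a. The 7 WT peaks without a cKO partner measured 152 to 314 bp and were named for Rab6b, Rab8b, Vps8, Vps13b, Vps26b, Vps33b and Vps39.

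Joining peaks within 3 kb turned 550 body peaks of 62 members into 150 domains in cKO and 159 body peaks of 45 members into 78 domains in WT. The longest domain of a member had a median of 6.43 kb in cKO and 1.81 kb in WT. The longest of all covered 31495 bp of Vps39 in cKO (chr2:120316892-120348386), made of 26 peaks, and the whole of the marked part of Rab23 formed 1 domain of 18780 bp from 20 peaks. After joining, Rab1b was 95.1% covered in cKO and 68.3% in WT, and Vps4a 62.4% and 62.0%. On Vps4a the genotypes thus differed by 36.8 points in coverage before joining and hardly after it. Over the members of at least 5 kb the median difference went the other way, from 13.3 points before joining to 23.8 after it. Median joined coverage of these members was 30.4% in cKO and 1.84% in WT, beside 38.9 and 2.88% over marked genes.

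Coverage increased from the 5' to the 3' end of the members in both libraries. Over the 45 members of at least 5 kb with a known strand and a peak, mean coverage of 5 equal bins of the body, in that order, was 4.32, 12.6, 21.2, 31.3 and 38.5% in cKO and 0.652, 1.13, 2.59, 6.09 and 8.17% in WT. Over 7214 marked genes it was 5.84, 19.3, 28.2, 35.0 and 39.7% in cKO and 0.917, 3.64, 5.99, 8.07 and 9.47% in WT. The last bin exceeded the first in 38 of 45 members in cKO and in 21 of the 32 with a WT peak. The shares of all genes for this comparison are not given here. The first bin held no peak in 30 of 45 in cKO and in 40 of 45 in WT. It held one in 33.3% of members in cKO and 11.1% in WT, beside 34.4 and 13.3% of the 7214 marked genes. The first-bin counts are thus near the background. In the 33 members with a strand and a peak in both libraries, the first peak began nearer to the start in cKO in 31 and in WT in 2. The median distance was 5.56 kb in cKO and 14.5 kb in WT. Member bodies held 550 peaks in cKO and 159 in WT, and cKO peaks overlapped 95.4% of WT member peaks. The order of first peaks was thus largely set in advance, and the same count over all genes is not given here. Vps13d ran against the pattern, with 29.2, 19.5, 9.20, 0 and 0% over its bins in cKO and WT peaks in the first bin alone, at 2.58%. The RefSeq span used for it shares 11.0% of its length with Dhrs3. In cKO the first bin also exceeded the last in Vps53 (9.58 and 1.57%), Vps8 (4.45 and 0%), Vps41 (6.53 and 1.75%) and Rab9 (6.61 and 0%). Vps33a was high at both ends in cKO, with 44.3% in the first bin, 2.92% in the fourth and 64.7% in the last.

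**Figure D5:**
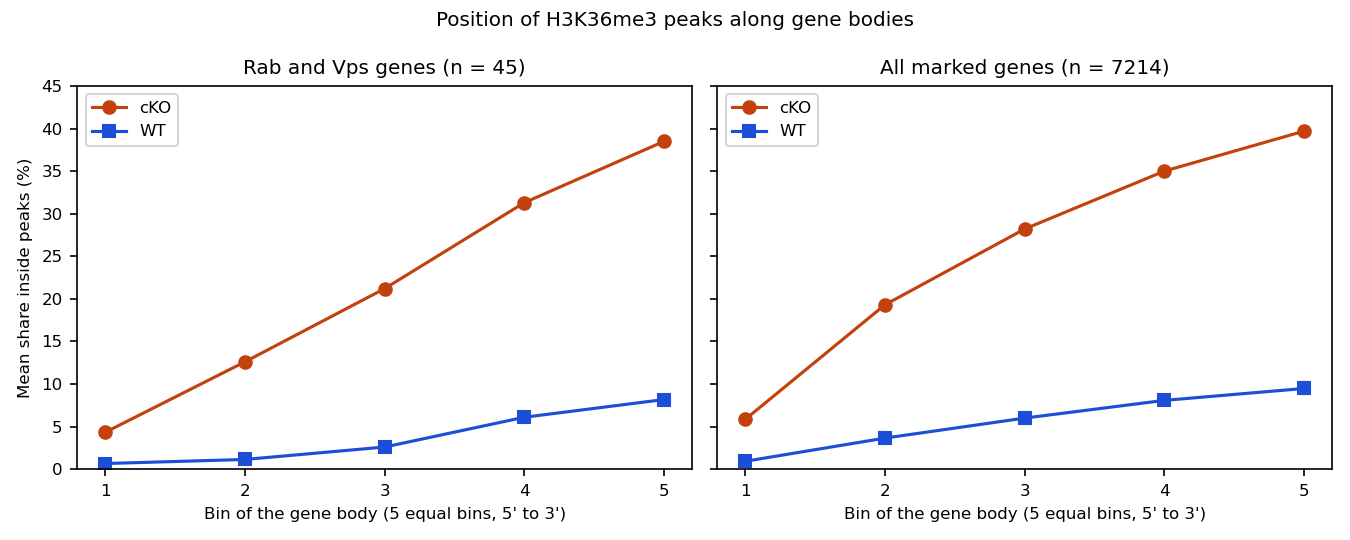
Mean share of each bin of the gene body inside peaks (y axis, percent; x axis, 5 equal bins from 5' to 3') for 45 Rab and Vps genes (left) and 7214 marked genes (right), with circles for the cKO library and squares for the WT library. Both libraries climb toward the 3' end, for Rab and Vps genes to 38.5% in cKO and 8.17% in WT.

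By the authors' classes, introns held 65.7% of the 539 member peaks in cKO (interval 61.5 to 69.7%) and 57.5% of the 153 in WT (49.3 to 65.5%), and exons 13.7% (10.9 to 16.9%) and 19.6% (13.6 to 26.8%). Peaks at transcription termination sites made up 14.3% in cKO and 17.6% in WT, and those at promoters 6.31 and 5.23%. Over all genic peaks introns held 64.0% in cKO and 50.9% in WT, so the members stood close to all genes in cKO. A promoter class in that annotation refers to any transcript, as for the 6215 bp peak toward the 3' end of Vps16. The strongest member peak of the cKO list, ranked by its own -log10 q of 57.1 from the authors, lay in intron 4 of 12 of Vps33a (chr5:123567842-123569787). A WT peak of 935 bp lay at the same place (chr5:123568477-123569411).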

How the data were processed

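Per the submitters' processing notes, reads were aligned with Bowtie2 2.2.9 to mm10 and peaks called with MACS2 2.1.0; the file headers name version 2.1.1.20160309, a p-value limit of 1.00e-05, and fragments of 185 bp in cKO and 152 bp in WT. Each deposited list gave the authors' peak positions, pileup signal, fold enrichment over input, and the -log10 of p and q. Positions were used throughout, and -log10 q and fold served as filters within a list. Peaks were also ranked within a list by -log10 q, with pileup for ties when the cKO list was reduced. A second deposited table gave each peak a class and gene name by a tool not given in the sources used here. Genes and promoter windows came from RefSeq (GRCm38.p6). With python 3.11.15, pandas 2.3.3 and scipy 1.17.1, non-intergenic peaks were counted per name and coverage computed from merged peaks over bodies of at least 5 kb; overlap meant 1 bp. The code was tested on simulated data. Input libraries held 35026817 tags in cKO and 38500353 in WT.

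The members and gene lists were chosen with earlier results of these data known. All members could be named; those given in full were the 10 with the most summed length, the highest coverage and the largest differences, those lower in cKO or marked in 1 library, and 2 to 4 per role. Samples were grouped by their labels, and 0 other columns of per-sample values were left out.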

Additional observations from a re-analysis of the deposited data

Results flagged for a closer look

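The cKO list held 8 intergenic peaks named for Rab and Vps genes, which entered no count of the report, and the WT list held 0. Of these, 4 lay beside Rab43 (266 to 1939 bp long), 2 beyond Rab18 (939 and 227 bp) and 2 beyond Rab21 (342 and 269 bp). The Rab43 peaks lay between the Rab43 body and Isy1, whose own body was 48.6% covered in cKO and 13.5% in WT.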

How the results depend on the processing

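Of the 72 results recomputed under another setting, 53 kept their direction and stayed within 1.5 times the reported value, among them ratios of summed length of 5.10 to 9.15. Some of the 53 could not change. Reducing the cKO list leaves the WT counts as they are, and joining peaks leaves the number of genes with a peak. Counts of members higher or lower in this section are by the 2-fold call on summed length, not by coverage. Their shares over all genes under these settings are not given here, so they describe the members alone. Reducing the cKO list to the WT covered length left 7 members and 11 peaks in cKO. It turned the ratio of summed length to 0.367 and the median coverage difference to -0.509 points, and gave 0 members higher and 37 lower. Reducing the cKO list to the WT peak number gave 178 peaks, a ratio of 4.11 and a difference of 7.24 points. Peaks of at least 500 bp numbered 211 in cKO and 18 on 14 members in WT, with a ratio of 17.9 and 1 member lower. Joining within 3 kb left 130 peaks in cKO and 73 in WT and a difference of 23.8 points. Peaks on the RefSeq body gave 0 members lower, and exon and intron peaks only a difference of 7.60 points. The cause was not tested beyond each construction. Coverage had no separate value for the RefSeq body, which it already uses. Named peaks inside their own body, a setting chosen after seeing the data, gave 427 cKO and 112 WT peaks, a ratio of 7.58, and 57 members higher and 3 lower. No paired analysis was possible because each genotype had 1 ChIP library and no result came from a test.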
